A study of Mus musculus with 48 samples.

Results

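The T cell and intraepithelial lymphocyte genes described here are Cd3d, Cd3e, Cd3g, Cd4, Cd8a, Cd8b1, Gzma, Gzmb and Itgae. These 9 genes were chosen as markers of the lymphocytes of the gut wall and found by symbol among 54532 genes, of which 51106 carry a symbol. A filter on low counts left 21986 genes for testing, and all 9 passed it. They were followed through RNA-seq of mouse small intestine at day 0, 2, 4, 6 and 8 after birth and at week 2, 3 and 4, in the duodenum, the first segment after the stomach, and in the ileum, the last segment before the colon. All animals were wild-type C57BL/6J mice of both sexes, weaned 21 days after birth, and usually 2 or 3 ages came from a litter. The labels call the housing standard germ-free, and whether these mice lacked microbes was not settled from the sources used here. RNA was taken from 2 cm pieces of the whole gut wall, so epithelium, lamina propria, muscle and any lymphoid follicle in the piece were measured together, and fewer cells of a type and less RNA per cell cannot be told apart. Each of the 16 groups of region and age had 3 samples. At day 6 there were 2 per region, because the samples numbered 3 looked exchanged between the regions and both were left out.

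T cells recognise antigen with a receptor whose chains are held at the surface by the CD3 proteins, which carry the signal into the cell. CD4 and CD8 are coreceptors: CD4 reads class II and CD8 reads class I molecules of the major histocompatibility complex, and CD8 can be a pair of alpha and beta chains or of 2 alpha chains. Intraepithelial lymphocytes are T cells lodged between the enterocytes. Many of them carry CD8 alpha without CD8 beta, hold granzymes ready in their granules, and are tethered to epithelial E-cadherin by the integrin alpha E chain that Itgae encodes.

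The 9 genes lie at 6 places in the genome (mm10, GENCODE M21). The CD3 genes form a cluster, with Cd3g at chr9:44969572-44980431 on the minus strand, Cd3d at chr9:44981786-44987339 on the plus strand and Cd3e at chr9:44998740-45009627 on the minus strand. Cd3g and Cd3d stand head to head with 1354 bases between them. The coreceptor genes Cd8b1 (chr6:71322788-71337494) and Cd8a (chr6:71373427-71379173) are neighbours on the plus strand, 35932 bases apart, and Cd4 is elsewhere on that chromosome (chr6:124864692-124888221, minus strand). Gzma is at chr13:113093825-113100981 on the minus strand, Gzmb at chr14:56258838-56262260 on the minus strand and Itgae at chr11:73090583-73147446 on the plus strand. Exons of Cd3e overlap those of Gm48719 on the other strand, which had between 0 and 11 counts in the 46 samples. Haspin lies inside Itgae on the other strand without sharing exon bases.

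Promoter windows from RefSeq (GRCm38.p6, the same build) could be matched for 6 of the 9 genes: Cd3d, Cd3e, Cd3g, Cd8a, Gzma and Gzmb. The 250 bases upstream of the start were searched on both strands for 4 short motifs named after factors of T cell genes: TGTGGT (RUNX), CACCTG (an E-box), AGGAAG (ETS) and CTTTGA (TCF). Capitals below mark every match, and no match overlaps another in the windows shown. Of 32851 promoters of the same length in the reference, 14% hold the RUNX letters, 17.2% the E-box letters, 29.5% the ETS letters and 13.8% the TCF letters. Among the 6 promoters the RUNX letters were in 2 (Gzma and Gzmb), the E-box letters in 3 (Cd3d, Cd3g and Gzma), the ETS letters in 2 (Cd3d and Cd3e) and the TCF letters in 1 (Cd3d). The window of Cd8a held none of the 4. The windows of Cd3g and Cd3d are shown because the genes share 1 stretch of DNA between their starts, and those of Gzma and Gzmb because these genes reached the highest levels. Each is written 5′ to 3′ on the strand of its gene: Cd3g at chr9:44980432-44980681 (minus), Cd3d at chr9:44981536-44981785 (plus), Gzma at chr13:113100982-113101231 (minus) and Gzmb at chr14:56262335-56262584 (minus).
Cd3g: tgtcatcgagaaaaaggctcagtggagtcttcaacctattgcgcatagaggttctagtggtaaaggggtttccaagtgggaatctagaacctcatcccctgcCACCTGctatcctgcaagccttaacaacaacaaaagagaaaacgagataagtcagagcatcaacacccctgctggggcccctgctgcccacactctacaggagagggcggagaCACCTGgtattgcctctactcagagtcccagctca
Cd3d: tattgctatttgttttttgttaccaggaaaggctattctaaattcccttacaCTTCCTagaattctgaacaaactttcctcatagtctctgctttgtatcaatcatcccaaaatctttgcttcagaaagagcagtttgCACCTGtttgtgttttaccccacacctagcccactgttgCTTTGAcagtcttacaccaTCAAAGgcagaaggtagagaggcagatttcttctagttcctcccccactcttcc
Gzma: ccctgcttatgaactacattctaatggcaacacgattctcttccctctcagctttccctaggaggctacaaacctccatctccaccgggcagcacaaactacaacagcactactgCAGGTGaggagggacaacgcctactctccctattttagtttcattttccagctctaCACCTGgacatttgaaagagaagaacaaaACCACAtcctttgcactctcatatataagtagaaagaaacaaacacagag
Gzmb: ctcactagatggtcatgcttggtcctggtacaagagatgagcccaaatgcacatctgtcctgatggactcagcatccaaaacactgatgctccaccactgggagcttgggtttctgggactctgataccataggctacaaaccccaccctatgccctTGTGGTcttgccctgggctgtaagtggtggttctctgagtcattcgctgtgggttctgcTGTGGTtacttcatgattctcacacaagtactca

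Values below are CPM, the estimated read counts relative to TMM-scaled library totals, and a gene is called changed at an adjusted p under 0.05 in edgeR's quasi-likelihood test over all tested genes. Library totals ran from 16824021 to 65042327 estimated counts. The labels do not say that samples were separate animals, so p-values measure only the spread between these samples. Libraries with Ddx3y, a Y-linked gene, above 1 CPM numbered 2 of 3 in each region at week 3 and 0 of 3 in each region at week 4. At day 0 they numbered 3 of 3 in the duodenum and 1 of 3 in the ileum. The counts of T cell genes called were the same with an index of sex as a covariate.

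The T cell genes were scarce through week 3, and most of them rose between week 3 and week 4. Summed over the 9 genes, the 3 duodenal samples of week 3 had 11.8, 31.5 and 16.5 CPM, and those of week 4 had 311.8, 194.6 and 239.2 CPM. The ileal samples went from 3.88, 7.24 and 8.20 CPM at week 3 to 162.8, 135.9 and 145.6 CPM at week 4. Every week 4 sample was thus above every week 3 sample in both regions. Gzma and Gzmb gave the largest parts of the week 4 sums. Their means were 115.9 and 53.4 CPM in the duodenum, and 55.4 and 29.7 CPM in the ileum (n = 3 each). In this step 7 of the 9 genes rose in the duodenum, where 12.7% of all tested genes were called and 7.75% were called higher. All 9 rose in the ileum, where 16.1% of all genes were called and 8.26% were called higher. The median log2 change of the 9 genes was 3.74 in the duodenum and 4.09 in the ileum, against -0.04 and 0 over all tested genes. The called rises ran from 7.77-fold to 17.5-fold in the duodenum and from 3.84-fold to 119.9-fold in the ileum.

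**Figure D1:**
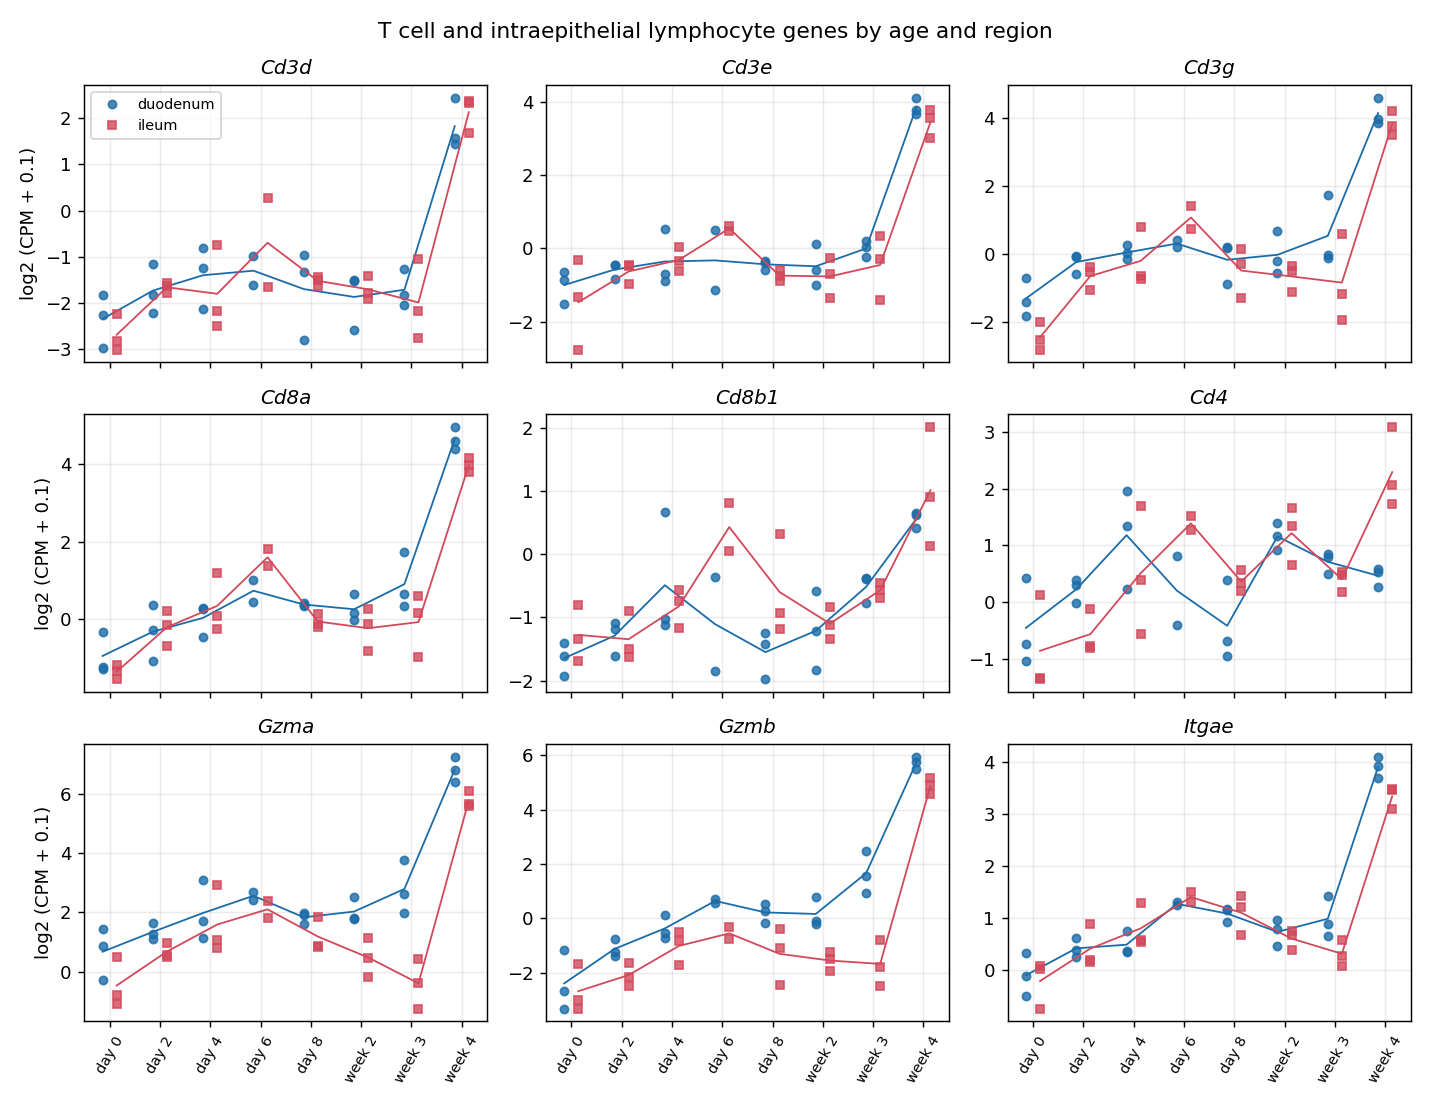
Level of each of the 9 T cell genes by age, as log2 of CPM plus 0.1 with 1 point per sample (circles duodenum, squares ileum) and lines joining the group means of these log values. Levels stay low through week 3 and climb at week 4, apart from Cd4 in the duodenum, where week 4 lies within the earlier samples. For Cd8b1, 1 earlier duodenal and 2 earlier ileal samples lie above the lowest week 4 sample of their region.

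The 3 CD3 chain genes behaved alike. Cd3e, the epsilon chain, is part of every T cell receptor complex. In the duodenum it stood at 0.752, 1.05 and 0.924 CPM at week 3 and at 17.3, 12.7 and 13.7 CPM at week 4. In the ileum the samples had 0.280, 0.724 and 1.16 CPM at week 3, then 13.6, 7.94 and 11.8 CPM at week 4. No earlier sample of either region reached the lowest week 4 sample, and the highest of the 20 earlier samples was 1.34 CPM in the duodenum and 1.42 CPM in the ileum. The log2 change was 4.01 (SE 0.50, edgeR adjusted p = 1.97e-07) in the duodenum and 3.95 (SE 0.52, edgeR adjusted p = 3.82e-07) in the ileum.

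Cd3g, the gamma chain, had 0.824, 3.21 and 0.873 CPM in the duodenum at week 3 and 23.96, 14.29 and 15.42 CPM at week 4. Its ileal samples had 0.160, 0.338 and 1.40 CPM at week 3, then 13.46, 11.2 and 18.04 CPM at week 4. Duodenal sample 2 of week 3 stood above its group for Cd3g, and below the week 4 samples. That sample was also the highest of its group for Cd3d, Cd3e, Cd8a, Gzma, Gzmb and Itgae, but not for Cd4 or Cd8b1. Cd3d, the delta chain, was the scarcest of the 3 and was counted from 1 to 206 reads per sample in the duodenum. It went from 0.143, 0.314 and 0.180 CPM to 5.37, 2.64 and 2.90 CPM in the duodenum, and from 0.120, 0.386 and 0.0482 CPM to 5.13, 3.10 and 4.94 CPM in the ileum. The log2 changes were 3.48 (SE 0.53) and 4.51 (SE 0.58) for Cd3g and 4.13 (SE 0.66) and 4.56 (SE 0.70) for Cd3d, in the duodenum and ileum, with edgeR adjusted p between 3.05e-07 and 1.85e-05. For both genes all week 4 samples were above all earlier samples of their region.

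The coreceptor genes did not move as a group. Cd8a, the alpha chain of CD8, had 1.15, 3.21 and 1.46 CPM in the duodenum at week 3 and 31.2, 20.9 and 24.3 CPM at week 4. In the ileum it had 0.400, 1.01 and 1.40 CPM at week 3, then 18, 13.75 and 15.63 CPM at week 4. The samples of the 2 ages did not overlap in either region. The log2 change was 3.74 (SE 0.42, edgeR adjusted p = 2.27e-08) in the duodenum and 4.09 (SE 0.44, edgeR adjusted p = 9.87e-09) in the ileum.

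Cd8b1, the beta chain that completes the CD8 of conventional cytotoxic T cells, changed less. Its duodenal samples had 0.484, 0.663 and 0.668 CPM at week 3, then 1.43, 1.47 and 1.24 CPM at week 4, a log2 change of 1.2 (SE 0.50) with an edgeR adjusted p of 0.112. Its ileal samples had 0.520, 0.579 and 0.627 CPM at week 3, then 0.991, 1.77 and 3.94 CPM at week 4, a log2 change of 1.94 (SE 0.53, edgeR adjusted p = 0.00829). The ages did not overlap in either region, but 1 earlier duodenal sample and 2 earlier ileal samples were above the lowest week 4 sample. Without ileal sample 3 of week 4 the ileal change was 1.24 with an edgeR adjusted p of 0.144. With only the compared groups in the fit, the duodenal rise was called (edgeR adjusted p = 0.0284) and the ileal rise was not (edgeR adjusted p = 0.0556).

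Cd4, the coreceptor of helper T cells, is also transcribed in some macrophages and dendritic cells. In the duodenum it had 1.31, 1.64 and 1.70 CPM at week 3, then 1.41, 1.11 and 1.34 CPM at week 4. The log2 change was -0.26 (SE 0.50, edgeR adjusted p = 0.784), the 2 groups overlapped, and 13 of the 20 earlier duodenal samples were above the lowest week 4 sample. The highest duodenal group was day 4, at 1.08, 2.44 and 3.80 CPM. In the ileum Cd4 went from 1.04, 1.351 and 1.302 CPM at week 3 to 3.21, 4.07 and 8.35 CPM at week 4. That log2 change was 2.07 (SE 0.52, edgeR adjusted p = 0.00362), and the week 4 samples were above all earlier ileal samples. Without ileal sample 3 of week 4 it was 1.53 with an edgeR adjusted p of 0.0557.

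The granzyme genes rose to the highest levels. Granzyme A is a serine protease of cytotoxic granules, and Gzma reached 152.7, 83.8 and 111.3 CPM in the duodenum at week 4, from 3.85, 13.4 and 6.11 CPM at week 3. In the ileum it went from 0.320, 1.25 and 0.675 CPM to 67.9, 49.9 and 48.4 CPM. The log2 change was 3.91 (SE 0.55, edgeR adjusted p = 3.39e-06) in the duodenum and 6.23 (SE 0.66, edgeR adjusted p = 1.36e-08) in the ileum, with no overlap between the ages in either region.

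Granzyme B triggers death of the target cell by cleaving caspases. Gzmb had 1.83, 5.48 and 2.83 CPM in the duodenum at week 3 and 61.4, 44.8 and 54.0 CPM at week 4. Ileal samples held 0.0800, 0.483 and 0.193 CPM at week 3, from 2, 10 and 4 estimated reads, then 29.7, 35.8 and 23.5 CPM at week 4. The step was 16-fold in the duodenum, a log2 change of 4.00 (SE 0.48, edgeR adjusted p = 1.16e-07). The ileal step was 119.9-fold, or 6.91 on the log2 scale (SE 0.61, edgeR adjusted p = 1.60e-10). The ileal fold rests on the few reads of week 3. Before week 3 duodenal Gzmb stood at 1.38 and 1.54 CPM at day 6 and 0.767 to 1.63 CPM at week 2, while the ileal samples had 0.695 and 0.485 CPM at day 6 and 0.164 to 0.326 CPM at week 2.

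Itgae, the alpha E integrin chain, rose by the smallest factor of the genes called in the duodenum. It went from 1.47, 2.58 and 1.75 CPM to 17, 12.81 and 14.96 CPM in the duodenum and from 0.960, 1.11 and 1.40 CPM to 10.84, 8.378 and 10.96 CPM in the ileum. The duodenal log2 change was 2.96 (SE 0.28, edgeR adjusted p = 5.37e-10), the ileal one was 3.12 (SE 0.30, edgeR adjusted p = 4.93e-10), and no samples overlapped. Before week 4 Itgae was never at 0 in any sample, with 0.610 to 2.58 CPM in the duodenum and 0.499 to 2.74 CPM in the ileum.

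**Figure D2:**
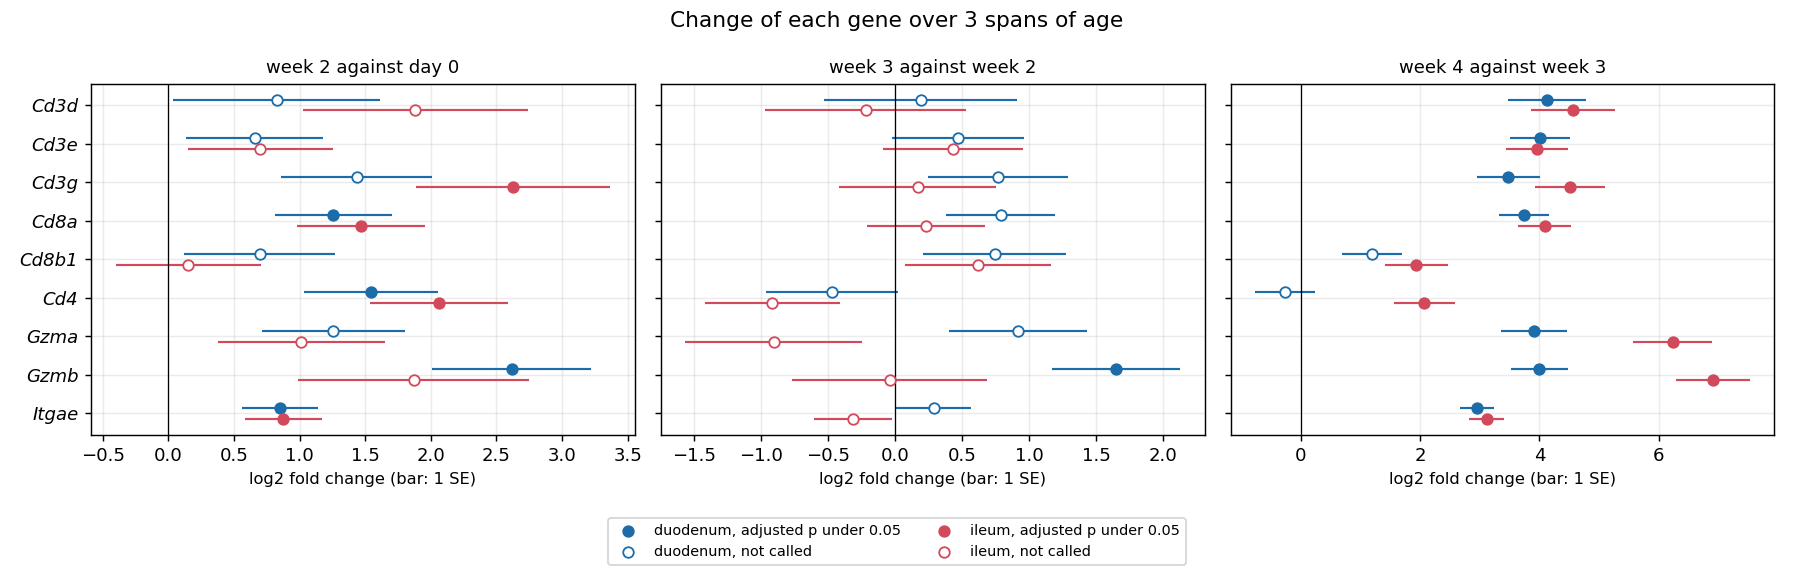
Log2 fold change of each of the 9 genes in each age step, with bars of 1 SE, for the duodenum (blue) and the ileum (red), filled where the adjusted p was under 0.05. The panels have their own axes: no change of the first 2 steps is above 2.63, and the step from week 3 to week 4 reaches 4.13 (Cd3d, duodenum) and 6.91 (Gzmb, ileum).

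The order of the ages was read for each gene and region from the group means. Week 4 was the highest group for 9 of 9 genes in the ileum and for 8 of 9 in the duodenum, the exception being Cd4. For 7 of the 9 genes in the duodenum every week 4 sample was above all earlier samples, which held for 6.31% of all tested genes. The exceptions there were Cd4 and Cd8b1. In the ileum this held for 8 of 9, against 5.28% of all tested genes, and the exception was Cd8b1.

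Behind week 4, the second-highest ileal group was day 6 for all 9 genes. Its 2 samples had 2.48 and 3.43 CPM of Cd8a, 1.56 and 2.52 CPM of Cd3g, and 2.30 and 2.75 CPM of Cd4. At day 8 the ileal samples had 0.990, 0.814 and 0.764 CPM of Cd8a, below both day 6 samples. The summed level of B cell markers was 25.1 and 37.6 CPM in the ileal samples of day 6, and 5.96 to 15.1 CPM at week 3. The summed level of follicle markers was 7.17 and 12.2 CPM at day 6 and 0.920 to 3.28 CPM at week 3. Ileal means of the follicle markers Fcer2a, Cr2, Cxcr5 and Cxcl13 were 4.32, 3.24, 1.23 and 0.878 CPM at day 6. At day 8 they were 1.49, 1.64, 0.844 and 0.461 CPM, and samples of these ages overlapped for Cr2 and Cxcr5. The part of lymphoid follicles or of other cells in the day 6 values was not tested. In the duodenum the second group was week 3 for Cd3e, Cd3g, Cd8a, Gzma and Gzmb, day 6 for Cd3d and Itgae, and day 4 for Cd8b1.

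Smaller changes came before weaning. From day 0 to week 2, 4 of the 9 genes rose in the duodenum (Cd4, Cd8a, Gzmb and Itgae), where 23.5% of all genes were called and 12.1% were called higher. In the ileum 4 rose (Cd3g, Cd4, Cd8a and Itgae), where 12.3% were called and 6.43% were called higher. Gzmb rose most in the duodenum, from 0.0554, 0 and 0.346 CPM to 1.63, 0.834 and 0.767 CPM, a log2 change of 2.62 (SE 0.61, edgeR adjusted p = 0.00137). In the ileum Cd3g went from 0.148, 0.0418 and 0.0712 CPM to 0.598, 0.678 and 0.360 CPM, a log2 change of 2.63 (SE 0.74, edgeR adjusted p = 0.0141).

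Cd4 rose in both regions over these 2 weeks, by a log2 change of 1.54 (SE 0.51, edgeR adjusted p = 0.0245) in the duodenum and 2.06 (SE 0.53, edgeR adjusted p = 0.00614) in the ileum. Its samples went from 0.388, 0.501 and 1.24 CPM to 2.51, 2.14 and 1.80 CPM in the duodenum and from 0.296, 0.292 and 0.998 CPM to 3.04, 2.44 and 1.47 CPM in the ileum. The ages did not overlap in either region. Between day 0 and week 4 duodenal Cd4 differed by a log2 change of 0.81 (SE 0.51, edgeR adjusted p = 0.213). Without duodenal sample 3 of day 0 that change was 1.59 and called (edgeR adjusted p = 0.0365).

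These week 2 calls depended on single samples, and some on the processing. With 1 sample left out at a time, the number of the 9 genes called was 1 to 6 for the duodenum and 1 to 4 for the ileum. Gzmb in the duodenum was called in every such fit, and Cd4, Cd8a and Itgae there each lost the call without day 0 sample 1, day 0 sample 2 or week 2 sample 1 (edgeR adjusted p 0.0686 to 0.159). Without day 0 sample 3, Cd3g and Gzma were called as well (0.0394 and 0.0407). Cd4 and Itgae also lost it without week 2 sample 2 (0.0532 and 0.0719), and Cd8a without week 2 sample 3 (0.0592). In the ileum Cd3g lost the call without day 0 sample 2 or 3 or week 2 sample 2 (edgeR adjusted p 0.0563 to 0.0811), and Cd4 without day 0 sample 2 (0.0510). Cd8a and Itgae there lost it without day 0 sample 2 or 3 or week 2 sample 1 or 2 (0.0567 to 0.280), and Cd8a without day 0 sample 1 as well (0.0714). Gzmb there was called without day 0 sample 2 (0.0477). The ileal call of Itgae was also lost with RLE size factors, without a low-count filter, with only the compared groups, with all 48 samples, with the replicate block and in both limma fits (adjusted p 0.0509 to 0.127). That of Cd8a was lost with all 48 samples (0.0681) and with the replicate block (0.0584). In the duodenum Itgae lost the call without a low-count filter (0.0974) and with only the compared groups (0.0840), and Cd8a with all 48 samples (0.0550). DESeq2 and both limma fits called Cd3g there (0.0234 to 0.0452), and the 40 samples and both limma fits called Gzma (0.0159 to 0.0367).

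Few of the genes changed between week 2 and week 3. In the duodenum 1 of the 9 genes rose, Gzmb, by a log2 change of 1.65 (SE 0.48, edgeR adjusted p = 0.0118), where 18.3% of all genes were called and 7.70% were called higher. Its samples went from 1.63, 0.834 and 0.767 CPM to 1.83, 5.48 and 2.83 CPM, which did not overlap. Without duodenal sample 2 of week 3, the log2 change was 1.11 (edgeR adjusted p = 0.155). Without week 2 sample 2 it was 1.51 (0.0617) and without week 2 sample 3 it was 1.43 (0.0778). In the ileum edgeR called 0 of the 9, where 26.8% of all genes were called, and 0 had an unadjusted p under 0.05. The count there was 0 in every alternative fit run, DESeq2 and limma included.

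The regions differed at week 3 in the granzymes. At week 3, 2 of the 9 genes were lower in the ileum than in the duodenum, Gzma and Gzmb, where 14.2% of all genes were called and 6.90% were called lower. The ileum minus duodenum difference was -3.39 (SE 0.62, edgeR adjusted p = 0.000315) for Gzma and -3.75 (SE 0.60, edgeR adjusted p = 3.78e-05) for Gzmb on the log2 scale. The sample values given above did not overlap: the highest ileal sample was 1.25 CPM for Gzma and 0.483 CPM for Gzmb, and the lowest duodenal sample was 3.85 and 1.83 CPM. Differences of the other 7 genes at week 3 lay between -1.36 (Cd3g, SE 0.56, edgeR adjusted p = 0.0992) and -0.07 (Cd8b1). Without ileal sample 3 of week 3, Cd3g differed by -2.70 and was called (edgeR adjusted p = 0.00804).

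At week 4 the granzyme difference was smaller. Gzma differed by -1.07 (SE 0.49, edgeR adjusted p = 0.0966) and Gzmb by -0.85 (SE 0.42, edgeR adjusted p = 0.127) on the log2 scale. The duodenal samples of that age were nevertheless all above the ileal ones, with the lowest at 83.8 against 67.9 CPM for Gzma and at 44.8 against 35.8 CPM for Gzmb. With only the compared groups in the fit both were called (edgeR adjusted p = 0.0277 for Gzma and 0.0286 for Gzmb). The difference between the regions in the step from week 3 to week 4 was tested directly. It was 2.91 for Gzmb (SE 0.75, edgeR adjusted p = 0.0423), the 1 of 9 genes called in a test that called 1.18% of all genes. For Gzma it was 2.32 (SE 0.79, edgeR adjusted p = 0.144) and for Cd4 2.33 (SE 0.71, edgeR adjusted p = 0.0964), which was called without ileal sample 1 of week 4 (2.58, edgeR adjusted p = 0.0341). The Cd4 difference was also called with the replicate block (2.23, edgeR adjusted p = 0.0394), with DESeq2 (2.37, adjusted p = 0.0362) and with the 40 samples (2.47, edgeR adjusted p = 0.0276).

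The Gzmb call for the difference in steps was near the threshold. It was lost without week 3 sample 2 or 3 or week 4 sample 2 or 3 of the duodenum, and without week 3 sample 1 or 3 or week 4 sample 2 or 3 of the ileum, with log2 values from 2.38 to 3.01 and edgeR adjusted p from 0.0528 to 0.142. It was also lost without a low-count filter, with only the compared groups and with all 48 samples (edgeR adjusted p 0.103 to 0.125). Averaged over the 8 ages, Gzma was lower in the ileum, with a log2 value of -1.18 (SE 0.20, edgeR adjusted p = 6.23e-06), and so was Gzmb, at -1.65 (SE 0.23, edgeR adjusted p = 1.01e-07). Cd3g was lower too, at -0.56 (SE 0.21, edgeR adjusted p = 0.0181), a call lost without duodenal sample 3 of day 0 (edgeR adjusted p = 0.0507). Cd8b1 was higher in the ileum by 0.43 without a call (SE 0.20, edgeR adjusted p = 0.0558), a value that was called with RLE size factors, a mean count of at least 10, DESeq2 and the 40 samples (adjusted p 0.0126 to 0.0438), and when some single samples were left out. The called genes were 3 of the 9, where 62.1% of all genes were called and 30.2% were called lower.

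Cd4 differed the other way. At week 4 it was the 1 of 9 genes called between the regions, higher in the ileum by 2.01 on the log2 scale (SE 0.50, edgeR adjusted p = 0.00376), where 28.4% of all genes were called and 14.5% were called higher. The 3 ileal samples, 3.21 to 8.35 CPM, were above the 3 duodenal samples, 1.11 to 1.41 CPM. Without ileal sample 3 the difference was 1.45 (edgeR adjusted p = 0.0550). The difference between the regions in the change from day 0 to week 4 was 2.41 for Cd4 (SE 0.73, edgeR adjusted p = 0.0430), again the 1 of 9 called, where 5.99% of all genes were called. That call was lost without any 1 of 7 samples: day 0 sample 3 and week 4 samples 1, 2 and 3 of the duodenum, and day 0 samples 1 and 2 and week 4 sample 3 of the ileum (log2 values 1.62 to 2.45, edgeR adjusted p 0.0676 to 0.200). It was also lost without a low-count filter, with only the compared groups and with all 48 samples (edgeR adjusted p 0.0549 to 0.109). For the step from week 2 to week 3, edgeR called 0 of the 9 as different between regions, where 1.38% of all genes were called, and 1, Gzma, had an unadjusted p under 0.05. DESeq2 called 0 as well.

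**Figure D3:**
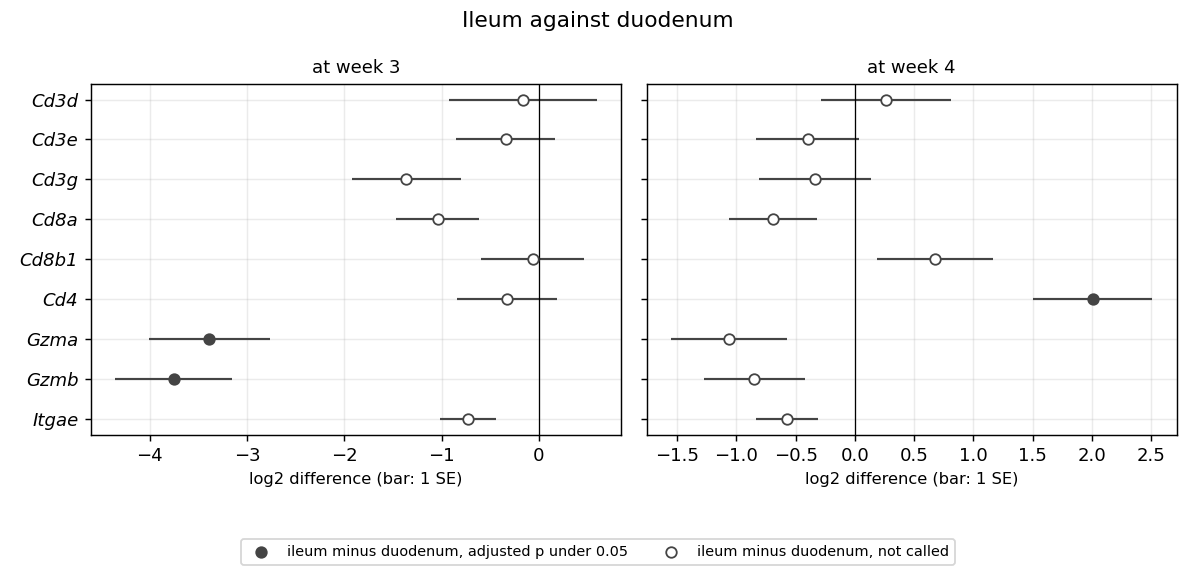
Ileum minus duodenum log2 difference of each of the 9 genes at week 3 and at week 4, with bars of 1 SE and filled points where the adjusted p was under 0.05. At week 3 Gzma and Gzmb lie at -3.39 and -3.75, and at week 4 Cd4 lies at 2.01 with the other genes between -1.07 and 0.68.

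Like Cd4, summed markers of B cells and follicles were higher in the ileum than in the duodenum at week 4. At week 4 the summed level of 6 B cell markers was 77.1, 159.8 and 270.0 CPM in ileal samples 1, 2 and 3, and 30.6 to 40.03 CPM in the duodenum. The summed level of 4 follicle markers was 28.3, 56.5 and 97.1 CPM in the same ileal samples and 10.1 to 10.4 CPM in the duodenum. Cd4 (3.21, 4.07 and 8.35 CPM) and Cd8b1 (0.991, 1.77 and 3.94 CPM) followed the same order of ileal samples. Cd8a (18, 13.75 and 15.63 CPM) and Gzma (67.9, 49.9 and 48.4 CPM) did not. The order rests on 3 samples. The part of lymphoid follicles or of dendritic cells in the ileal Cd4 and Cd8b1 values was not tested.

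Ratios between genes within a sample, taken per kilobase of exon, describe the makeup of the signal. Before week 4 some of them rest on few reads, since ileal samples went down to 0.0475 CPM for Cd3e and 0 for Gzmb. Those with Cd4 can also hold its transcripts from cells other than T cells. Cd8a over Cd8b1 was 5.79 to 8.87 in the 3 duodenal samples of week 4 and 0.306 to 3.15 in the 20 earlier ones, with no overlap. In the ileum it was 1.62 to 7.41 at week 4 and 0.204 to 1.68 before, and the lowest week 4 sample overlapped. Cd8a over Cd4 was 20.1 to 24.6 in the duodenum at week 4, from 0.280 to 3.15 before. The ileal samples had 2.08 to 6.23, from 0.264 to 1.81 before.

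Set against Cd3e, which marks all T cells, Cd8a stayed within its earlier range. Cd8a over Cd3e was 1.85 to 2.02 in the duodenum and 1.49 to 1.94 in the ileum at week 4, with earlier medians of 1.74 and 1.67. Gzmb over Cd3e was 10.02 to 11.19 in the duodenum and 5.68 to 12.8 in the ileum at week 4. Its earlier medians were 3.81 and 1.03, and the earlier ileal samples ended at 3.79, below all of week 4, while the earlier duodenal ones reached 14.9. Itgae over Cd3e was 0.875 to 0.971 and 0.711 to 0.939 at week 4, under every earlier sample of the same region, since those began at 1.06 and 1.08. Cd4 over Cd3e was 0.0823 to 0.0991 in the duodenum at week 4, under all earlier samples, which began at 0.740. The ileal range was 0.239 to 0.719, which overlapped the earlier samples, since those began at 0.417.

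**Figure D4:**
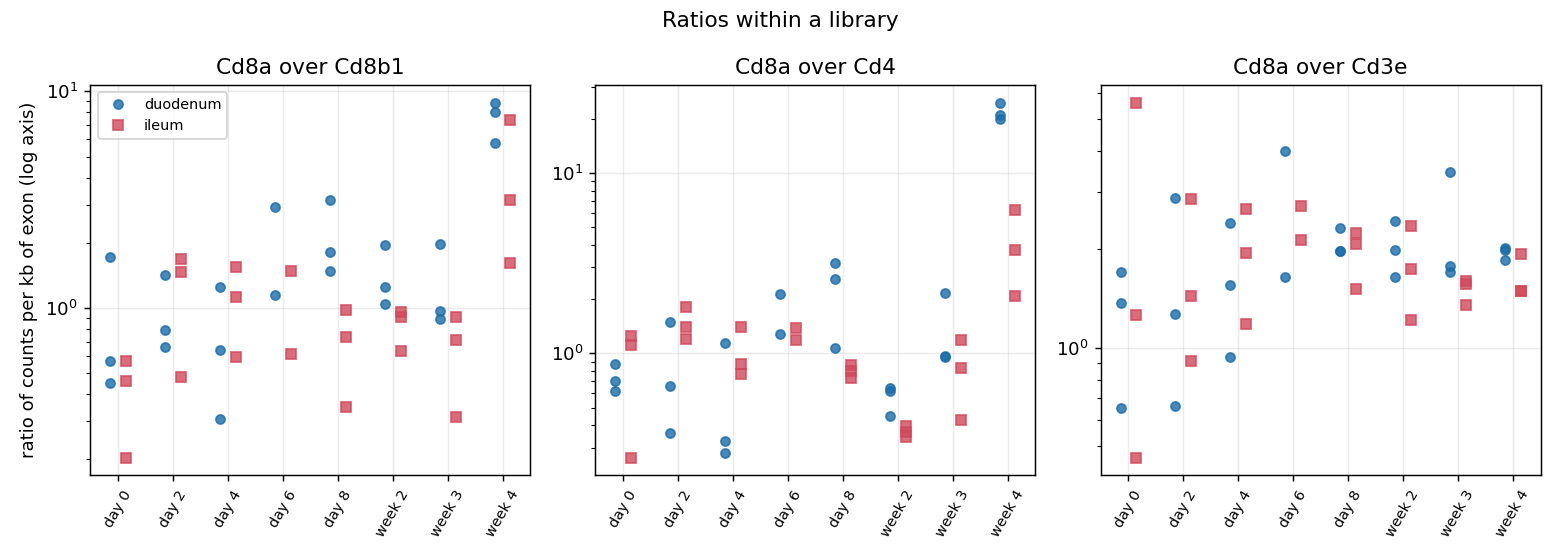
Ratios of Cd8a to Cd8b1, Cd4 and Cd3e per kilobase of exon in each sample, by age, on log axes (circles duodenum, squares ileum). Cd8a over Cd8b1 and Cd8a over Cd4 in the duodenum stand clear of all earlier samples at week 4, at 5.79 to 8.87 and 20.1 to 24.6.

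On the scale of CPM per kilobase of exon, the granzymes had the highest levels at week 4, here with the duodenal mean first and the ileal mean second. Gzma had 115.2 and 55.1, and Gzmb had 37.2 and 20.7. Mean levels were 7.01 and 4.34 for Cd8a, 5.47 and 4.35 for Cd3g, 3.57 and 2.72 for Cd3e, 3.26 and 2.20 for Itgae, and 2.00 and 2.42 for Cd3d. The lowest in both regions were Cd8b1 at 0.93 and 1.51, and Cd4 at 0.32 and 1.29.

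Other genes of the T cell receptor followed. Of 7 receptor chain genes, the step from week 3 to week 4 brought a rise of 6 in the duodenum and of all 7 in the ileum. The share of all tested genes called higher was 7.75% in the duodenum and 8.26% in the ileum. Below, the duodenal value stands first. Trbc2, a beta constant region, had log2 changes of 2.75 (SE 0.53) and 4.36 (SE 0.60), and the gamma constant regions Trgc1 and Trgc2 had 3.64 and 4.397, and 3.47 and 5.09. The delta constant region Trdc changed by 3.11 (SE 0.45) and 5.004 (SE 0.55). Estimated counts of the near-identical beta copies, and of the gamma copies, depend on how reads were shared between them.

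The exception was Trac, the alpha constant region, in the duodenum. Its mean level there rose from 5.01 ± 0.32 CPM at day 0 to 39.41 ± 12.04 CPM at week 2 (SD, n = 3 each), a log2 change of 2.98 (SE 0.34, edgeR adjusted p = 1.49e-08). At week 3 it was 3.95 ± 1.41 CPM (SD, n = 3), 10.03-fold lower, or -3.33 on the log2 scale (SE 0.34, edgeR adjusted p = 9.22e-10). At week 4 it was 4.604 ± 0.905 CPM (SD, n = 3), and this last step was not called (0.23, SE 0.32, edgeR adjusted p = 0.700). The highest duodenal level of Trac was thus at week 2, unlike that of any of the 9 genes. The other receptor genes were scarce in the same week 2 samples. Trbc1 had 0.375 ± 0.124 CPM, Trbc2 0.421 ± 0.027 CPM and Cd3e 0.653 ± 0.305 CPM (SD, n = 3 each). Whether the duodenal Trac reads came from T cells was not tested. In the ileum no group before week 4 had a mean Trac level above 3.12 CPM. Ileal Trac went from 0.579 ± 0.302 CPM at week 3 to 6.89 ± 1.71 CPM at week 4 (SD, n = 3 each), with a log2 change of 3.59 (SE 0.40, edgeR adjusted p = 1.75e-08). At week 3 Trac was lower in the ileum, with a log2 value of -2.79 (SE 0.40, edgeR adjusted p = 5.96e-06), and the difference between the regions in the step was 3.36 (SE 0.52, edgeR adjusted p = 0.000366).

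Genes of receptor signalling and costimulation rose in 9 of 14 in the duodenum and in 14 of 14 in the ileum. The shares of all genes called higher were 7.75% and 8.26%. Cd2, an adhesion receptor of T cells, changed by 3.38 (SE 0.71) and 5.18 (SE 0.75), Cd5, which dampens receptor signals, by 2.93 (SE 0.99) and 2.51 (SE 0.85), and Cd6 by 3.29 (SE 0.87) and 3.76 (SE 0.86). The 5 not called in the duodenum were Ubash3a, Themis, Cd28, Icos and Ctla4. Cd28 and Icos, costimulatory receptors, changed by 0.44 (SE 0.70) and 1.90 (SE 0.80) there and by 3.45 (SE 0.68) and 4.23 (SE 0.84) in the ileum. Whether the regions differed in these counts was not tested.

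Among cytotoxic effector genes, 7 of the 8 tested rose in each region, and Gzmc, Gzmk and Ifng were too low to test. Of all tested genes, 7.75% were called higher in the duodenum and 8.26% in the ileum in this step. The chemokine gene Ccl5 changed by 4.98 (SE 0.63) and 5.56 (SE 0.72), the granule inhibitor Cst7 by 4.53 (SE 0.95) and 4.00 (SE 1.07), and the death ligand Fasl by 3.91 (SE 0.74) and 3.75 (SE 0.92). Klrk1, a receptor for stress ligands, was not called (0.28 with SE 0.63 in the duodenum and 1.49 with SE 0.61 in the ileum). Among receptors and regulators of intraepithelial lymphocytes, 11 of 12 rose in each region. They included Cd96 (2.52 and 1.93), Tbx21, a transcription factor (2.98 and 3.14), and Cd160 (2.36 and 2.81), and the 1 not called was Ahr, the aryl hydrocarbon receptor (0.23 and 0.12).

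Of 10 epithelial genes that lymphocytes bind or answer to, 5 rose in the duodenum (Cdh1, Il7, Btnl1, Btnl2 and H2-T3), against 7.75% of all genes, and 1 in the ileum (Il7), against 8.26%. These changes were smaller than those of the receptor genes. Il7, a survival cytokine of lymphocytes, changed by 0.80 (SE 0.27) and 1.204 (SE 0.269), the butyrophilin-like genes Btnl1 by 0.76 (SE 0.20) and 0.08 (SE 0.20) and Btnl2 by 0.90 (SE 0.22) and 0.18 (SE 0.22), and the class I-like gene H2-T3 by 0.96 (SE 0.17) and 0.29 (SE 0.17). Cdh1, E-cadherin, the ligand of the integrin that Itgae encodes, changed by 0.67 (SE 0.17) and 0.28 (SE 0.17). Il15, a survival cytokine of these cells, changed by 0.64 (SE 0.23) and -0.15 (SE 0.23), Ccl25, the chemokine that draws cells to the small intestine, by 0.16 and -0.25, and Il15ra by 0.42 and 0.44. General markers of epithelium rose in 3 of 4 in the duodenum, Krt20, Vil1 and Epcam by 0.54 to 0.64, and in 0 of 4 in the ileum.

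Genes of helper and regulatory T cells rose in 0 of the 7 tested in the duodenum and in 2 of 7 in the ileum, Il21 and Bcl6, where 7.75% and 8.26% of all genes were called higher. Il21, a cytokine of follicular helper cells, was at 0 in all 6 samples of week 3 and reached 0.408 to 2.54 CPM in the ileum at week 4. Cd40lg reached 0.0583 to 0.401 CPM there, and Il2ra changed by -1.72 (SE 0.75) and 0.58 (SE 0.70), neither called. Foxp3, the factor of regulatory T cells, had a duodenal log2 value of 1.34 (SE 0.65, edgeR adjusted p = 0.179) and an ileal one of 1.31 (SE 0.67, edgeR adjusted p = 0.198). Genes of naive cells and lymph node homing rose in 6 of 8 in the ileum, where the homing receptor Ccr7 changed by 3.24 (SE 0.80). In the duodenum Ccr7 changed by 2.34 (SE 0.82, edgeR adjusted p = 0.0545), without a call. The homing ligand Madcam1 was not called (-0.41 and 0.11).

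Markers of other blood cells were read in the same step, and their part in the results was not tested. In that step 7.75% of all genes were called higher in the duodenum and 8.26% in the ileum. B cell markers rose in 6 of 6 in both regions (Cd79a 4.21 and 4.33, Pax5 4.39 and 3.70), and plasma cell markers in 3 of 4 in both (Igha 3.94 and 6.43, Jchain 3.717 and 6.604, Mzb1 3.03 and 5.58). Follicle markers rose in 3 of 4 and 4 of 4 (Fcer2a 3.68 and 4.31, Cr2 4.66 and 5.52, Cxcr5 3.22 and 5.30). Of 6 markers of NK cells and innate lymphoid cells, Ncr1, Eomes, Klre1, Klra4 and Il22 were too low to test. The sixth, Klrb1c, rose by 2.10 (SE 0.68) and 2.70 (SE 0.73), to 0.306 to 0.778 CPM in the duodenum and 0.776 to 1.14 CPM in the ileum.

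Macrophage markers did not share the rise. Of 7 macrophage markers none was called higher and 1, Csf1r, fell, by 1.51 on the log2 scale in the duodenum and by 1.01 in the ileum, while Cd68 changed by -0.29 and -0.49 and C1qb by -0.81 and 0.07, neither called. Their summed level was 40.3 to 46 CPM at week 3 and 17.2 to 29.5 CPM at week 4 in the duodenum, and 33.0 to 39.5 and 23.0 to 27.1 CPM in the ileum. Dendritic cell markers rose in 1 of 7 in the duodenum (Siglech) and in 3 of 7 in the ileum (Siglech, Flt3 and Itgax), where 7.75% and 8.26% of all genes were called higher. Flt3 changed by 0.06 and 2.41, and Xcr1 (-0.33 and 0.99) and Zbtb46 (0.01 and 0.76) were not called. No mast cell marker was called of the 4 tested (Mcpt1 0.373 and 1.496, Cpa3 0.61 and 1.86, Mcpt2 -0.38 and 1.13), nor any of 4 red cell markers (Hba-a1 -0.48 and 1.27, Hbb-bs -0.76 and 1.23). Of 7 pancreatic acinar markers none rose. Ctrb1 fell in the ileum, and the summed level of the 7 was 4.46 to 14.5 CPM in the duodenum and 1.89 to 3.32 CPM in the ileum at week 4.

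**Figure D5:**
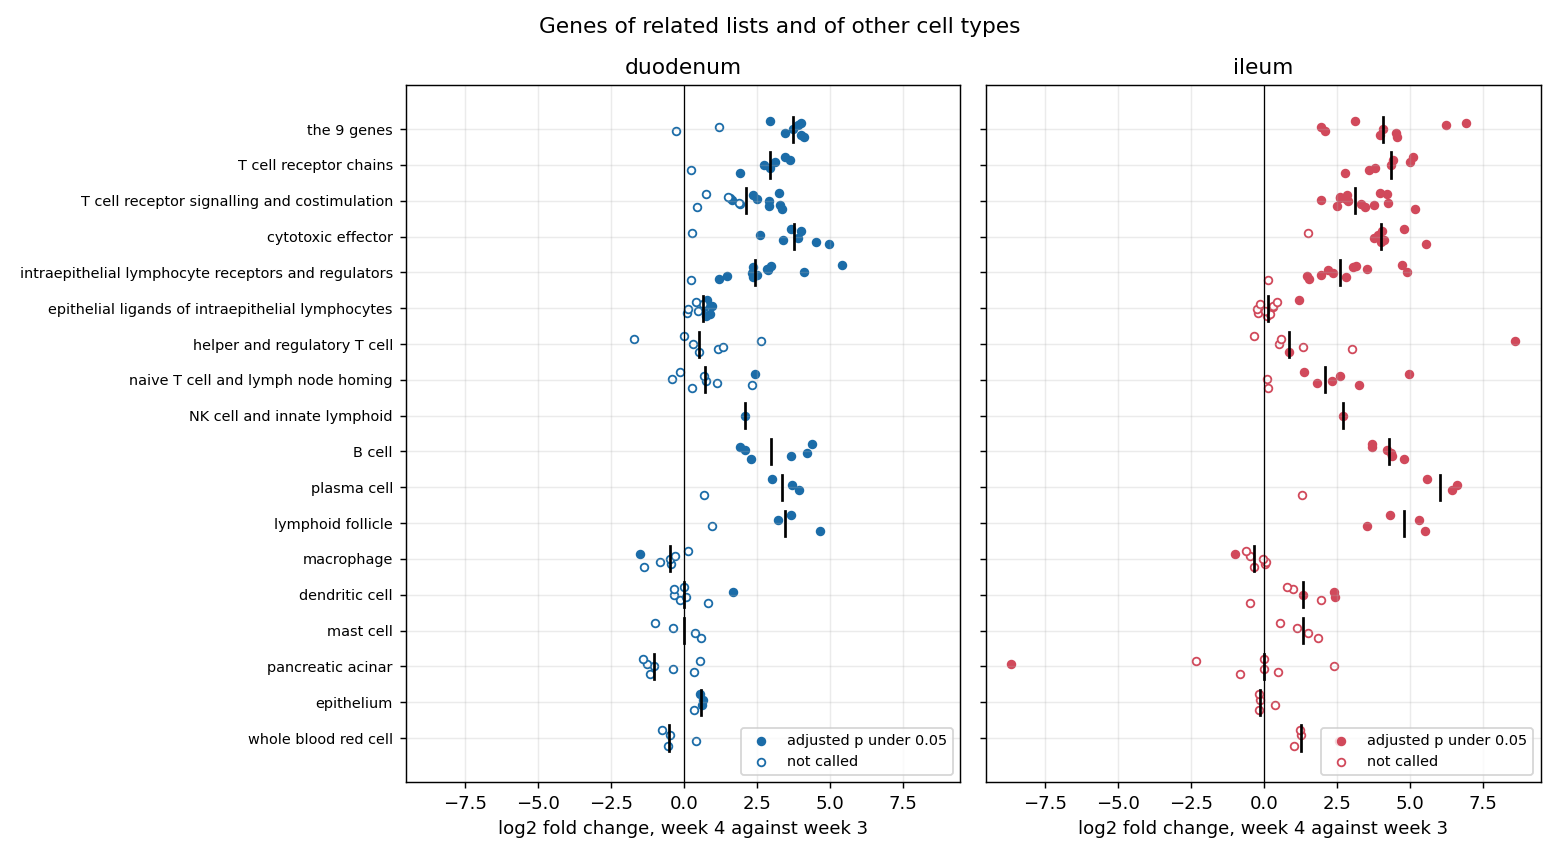
Log2 fold change from week 3 to week 4 of every tested gene of each list, 1 point per gene, filled where the adjusted p was under 0.05, with a bar at the list's median, for the duodenum and the ileum. Most points of the T cell receptor, cytotoxic, B cell and plasma cell lists are filled and right of 0, and no filled point of the macrophage, mast cell, acinar and red cell lists is.

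Across the 46 samples the genes varied together, Cd4 least. Pearson's r of log2 CPM between pairs of the 9 ran from 0.45 to 0.96 over 36 pairs, and from 0.83 to 0.96 over the 21 pairs without Cd4 and Cd8b1. The closest were Cd8a with Itgae (0.96), Cd8a with Cd3g (0.96) and Gzma with Gzmb (0.96). Some samples come from litters that span ages, every pair of genes shares its libraries, and library totals differ between samples. Without the week 4 samples, over 40 samples, the pairs ran from 0.28 to 0.85.

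The 10 genes outside the set whose pattern was most like the mean of the 9 were Trbc2 (r = 0.953), Cd7 (0.948), Trgc1 (0.940), Gimap7 (0.937), Trgc2 (0.928), Zap70 (0.923), Ccl5 (0.916), Cd96 (0.911), Ctsw (0.907) and H2-Q7 (0.906), over 46 samples. Without week 4 the same genes had r from 0.537 to 0.854 over 40 samples. Cd7, a surface protein of T and NK cells, went from 1.27 ± 0.35 CPM at week 3 to 21.95 ± 5.17 CPM at week 4 in the duodenum, while ileal samples averaged 0.319 ± 0.059 and 10.7 ± 0.992 CPM (SD, n = 3 each). H2-Q7, a class I gene with close paralogs that can share its reads, went from 3.80 ± 0.63 to 22.1 ± 2.46 CPM and from 4.304 ± 1.492 to 26.9 ± 8.24 CPM (SD, n = 3 each). For Cd4 the gene most like it was H2-Aa (r = 0.862 over 46 samples), a class II gene of antigen-presenting cells, while the most like of the 9 was Cd8b1 (0.655). For Cd3e, Cd8a, Gzma, Gzmb and Itgae it was Cd7, for Cd3d and Cd3g Trbc2, and for Cd8b1 Gm37510, a gene without a descriptive name.

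From day 0 to week 4 as a whole, 8 of the 9 genes rose in the duodenum, all but Cd4, where 40.5% of all genes were called and 20.4% were called higher. All 9 rose in the ileum, where 41.9% were called and 21.5% were called higher. Cd8b1 rose by a log2 change of 2.64 (SE 0.55, edgeR adjusted p = 0.000185) in the duodenum and 2.71 (SE 0.54, edgeR adjusted p = 8.98e-05) in the ileum. Cd8a rose by 5.78 in both regions (SE 0.47 and 0.49). An effect of age was called for all 9 genes in each region, where the share of all genes so called was 67.4% for the duodenum and 58.7% for the ileum.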

How the data were processed

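Per the submitters' processing notes, the tools used were STAR 2.6.1d, Salmon 0.14.2 and DESeq2 1.30.1 with the genome build mm10; the annotation release is not given in the sources used here. The authors deposited a table of estimated counts per gene for 48 samples, per the file headers, and 2 tables of a scaled signal that they call normalized counts, for 40 of these samples, which also pair identifiers with symbols. Estimated counts depend on how reads are shared between near-identical genes.

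Estimated counts were rounded to whole numbers and tested for 46 samples with edgeR 4.0.16 (filterByExpr, minimum count 10, TMM, quasi-likelihood F test) in R 4.3.3, with 1 mean per region and age. Benjamini-Hochberg adjustment covered all 21986 tested genes in each of 16 tests, and SE is the log2 change divided by the square root of F. Day 6 sample 3 of each region was left out. CPM used TMM-scaled totals, log2 CPM a prior count of 2, and levels per kilobase the exon union of GENCODE M21. Scripts were tested on simulated data.

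The 9 genes, the 7 lists of related genes and the 10 lists of markers of other cells were chosen with earlier results of these data known. The text names the 9 genes, for each list the tested genes that changed most from day 0 to week 4 and any gene at odds with its list, and the 10 genes most like the 9. Further genes named with a count were chosen after their values were seen. Values of some list genes are not reported here. Alternatives were RLE size factors, no low-count filter, a mean count of at least 10, DESeq2 1.42.0, only the compared groups, all 48 samples, the 40 samples, a sex index, a replicate block, each sample left out in turn, and limma 3.58.1 on log2 of the deposited signal plus 1 or 0.1.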

Additional observations from a re-analysis of the deposited data

Results flagged for a closer look

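Gzmb stood out because its step from week 3 to week 4 differed between the regions in a direct test, by 2.91 on the log2 scale (ileum minus duodenum). The sample values of that step are those given above, and the ileal samples of week 3 held the fewest reads.

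Cd4 stood out because its change from day 0 to week 4 differed between the regions, by 2.41 on the log2 scale. Ileal sample 3 of week 4 had the highest Cd4 level, at 8.35 CPM.

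The 2 libraries that were left out also held reads of these genes. The library labelled duodenum day 6 number 3 had 1092 estimated counts summed over the 9 genes, and the library labelled ileum day 6 number 3 had 585. Cd4 stood at 3.67 CPM in the first and 1.15 CPM in the second, and Gzmb at 1.18 and 2.47 CPM.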

How the results depend on the processing

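No log2 change of the 9 genes changed sign between a called value and an alternative. The counts of 7 and 9 genes called from week 3 to week 4 were within 1.5 times the main count under every alternative run. Leaving out 1 sample at a time gave counts of 1 to 6 (week 2 against day 0, duodenum), 1 to 4 (the same, ileum), 0 to 1 (week 3 against week 2, duodenum), 2 to 3, 0 to 1 and 2 to 4 (regions at week 3, at week 4 and over ages), and 0 to 2 and 0 to 1 (difference of regions in the step from week 3 to week 4 and from day 0 to week 4). limma on the deposited signal, plus 1 or plus 0.1, called 0 genes for week 3 against week 2 in the duodenum. All 48 samples gave 2 for week 2 against day 0 in the ileum and 0 for both differences of regions. The 40 samples gave 4 for the regions at week 3, 2 at week 4, 5 over ages, and 3 for the difference in the step from week 3 to week 4. Only the compared groups gave 3 for the regions at week 4 and 0 for both differences. No low-count filter gave 0 for both, and DESeq2 gave 2 for the step from week 3 to week 4. The cause was not tested.

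Same-numbered samples deviated together in part of 23 pairs (r from -0.363 to 0.672 over 12415 genes, 16 above 0.1, 19 best with their own number). The mean r was 0.155 for the same number and -0.0837 for other numbers. The labels do not say whether same-numbered samples share an animal. The main fit did not take the numbers as pairs, so it ignores any such sharing. The fit with a replicate block called 2 genes for week 2 against day 0 in the ileum and 2 for the difference of regions in the step from week 3 to week 4.

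Over all genes, counts that moved by more than 1.5 times ran from 1706 to 5330 against 2794 (week 4 against week 3, duodenum), 1527 to 4753 against 3534 (ileum), 3052 to 6231 against 4014 (week 3 against week 2, duodenum), 1802 to 4006 against 2715 (week 2 against day 0, ileum), 1376 to 5585 against 3117 and 2491 to 8097 against 6234 (regions at week 3 and week 4), and 113 to 672 against 303, 18 to 1046 against 259 and 377 to 3146 against 1317 (differences of regions from week 2 to week 3, week 3 to week 4 and day 0 to week 4). Before week 4 several of these genes had fewer than 10 reads in a sample, which limits the early folds.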

Other observations

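The T cell receptor chains of gamma delta cells were also counted at week 3. Trgc1 had 1.08 ± 0.50 CPM in the duodenum and 0.375 ± 0.268 CPM in the ileum at week 3. At week 4 these were 13.3 ± 4.57 CPM for the duodenum and 7.85 ± 1.85 CPM for the ileum (SD, n = 3 each). Gimap7, which encodes a GTPase of lymphocytes, changed by 3.89 (SE 0.48) in the duodenum and 5.16 (SE 0.55) in the ileum on the log2 scale from week 3 to week 4, with edgeR adjusted p of 1.86e-07 and 7.14e-09. Cd7 was lower in the ileum than in the duodenum at both ages, with a log2 value of -1.98 (SE 0.44, edgeR adjusted p = 0.00193) at week 3 and of -1.04 (SE 0.34, edgeR adjusted p = 0.0223) at week 4.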
